A study of Arabidopsis thaliana with 7 samples.

Results

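The genes described here are the nuclear genes of the photosynthetic light reactions in Arabidopsis thaliana: 51 loci for light-harvesting proteins, photosystem subunits, thylakoid electron carriers and the chloroplast ATP synthase. They were taken by locus, out of 27655 genes in the count tables, from a list of light-reaction genes that sets no threshold on their values but was drawn up with earlier results of these data known. They comprise 15 genes of the photosystem II antenna (LHCB), 6 of the photosystem I antenna (LHCA), 12 of photosystem I, 11 of photosystem II, 5 of electron carriers and 2 of the ATP synthase. All 51 passed the filter on low counts, as did 20795 genes in all. Polyadenylated RNA was sequenced from whole seedlings aged 18 days, kept in a cycle of 16 h light and 8 h dark. The sample labels give 23 °C, and the paper's methods give a slightly lower temperature. The groups were hot3-2 (n = 3), hot3-3 (n = 2) and the wild type (WT, n = 2), all in the Columbia (Col-0) background per the methods. Each mutant is a single T-DNA insertion line in HOT3, which encodes the translation initiation factor eIF5B1. Nothing in the sources used here says that replicates came from separate cultures, so P values measure the spread between these libraries, which may be technical.

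In the thylakoid membrane, photosystem II takes electrons from water, the cytochrome b6f complex and plastocyanin carry them on, and photosystem I passes them to ferredoxin. Antenna proteins bind chlorophyll and feed excitation into both photosystems. The reaction centre cores are encoded in the plastid, whereas the antenna and many peripheral subunits are encoded in the nucleus and imported. Their transcripts are abundant in green tissue and are known to respond to light, the clock and the state of the plastid, and GLK transcription factors are known activators of many of them.

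The LHCB1 copies are shown first because they changed unequally and are close in sequence. LHCB1.1 (AT1G29920), LHCB1.2 (AT1G29910) and LHCB1.3 (AT1G29930) lie close together on chromosome 1 (chr1:10474656-10475969, minus strand; chr1:10472280-10473502, minus; chr1:10477885-10479114, plus; RefSeq annotation of TAIR10.1). LHCB1.4 (AT2G34430) and LHCB1.5 (AT2G34420) lie on chromosome 2 (chr2:14524607-14525918, plus, and chr2:14522524-14523568, minus). Each is annotated as 1 exon. The coding sequence of LHCB1.1 was 95.7% identical to that of LHCB1.2, 96.1% to that of LHCB1.3 and 86.8% to that of LHCB1.4. The first 54 coding bases follow, with the 13 positions at which the 5 copies are not all alike in capitals.
LHCB1.1: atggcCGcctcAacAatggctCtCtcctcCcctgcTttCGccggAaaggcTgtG
LHCB1.2: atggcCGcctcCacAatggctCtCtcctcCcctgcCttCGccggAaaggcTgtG
LHCB1.3: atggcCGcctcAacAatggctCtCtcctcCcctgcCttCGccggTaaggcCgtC
LHCB1.4: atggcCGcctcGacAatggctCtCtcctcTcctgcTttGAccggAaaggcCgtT
LHCB1.5: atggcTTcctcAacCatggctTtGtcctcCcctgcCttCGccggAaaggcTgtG
Only uniquely and properly mapped read pairs were counted. In 49 of the 51 members no stretch of 150 transcript bases, the length of a read, also occurred in another gene, and in LHCB2.1 and LHCB2.2 the shared stretches were 0.239% and 0.302% of all. An annotated neighbour overlapped 18 members. LHCB1.5 lies wholly inside AT2G08665 on the opposite strand, and PSAH1, LHCB2.3 and PSAG share 788, 595 and 479 bases with a gene on the opposite strand. The strand setting of the counting is not given in the sources used here, so reads of these pairs may not have been told apart.

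The promoters held sequence elements that the choice of members did not use. In the window of 250 bases before to 50 bases after the annotated start, read on both strands, the G-box CACGTG occurred in 17 of 51 members (33.3%), against 7.68% of 27443 protein-coding genes. The I-box core GATAAG occurred in 22 members (43.1%), against 14.6% of all, and CCAATC in 18 members (35.3%), against 12.3% of all. The evening element core AAAATATC occurred in 4 members (7.84%), against 6.89% of all, and TATAAA in 23 members (45.1%), against 52.1% of all. In the 250 bases before the start alone, the G-box and the I-box core each occurred in 11 members (21.6%), against 6.49% and 12.3% of all. By complex, the G-box occurred in 7 of 11 photosystem II genes, 4 of 12 photosystem I genes, 4 of 15 LHCB genes, 1 of 6 LHCA genes, 1 of 2 ATP synthase genes and 0 of 5 electron carrier genes. A match is a description of letters, not of a bound site, and matches to different words may overlap.

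The 150 bases before the start of 6 members are printed from the TAIR10.1 genome. LHCB1.1 with LHCB1.4 and LHCB2.2 with LHCB2.3 are the copies whose levels moved apart, and PSBQ1 with PSBQ2 are copies whose ratio in the mutant libraries overlapped WT. In this order the windows are chr1:10475970-10476119 (minus strand), chr2:14524457-14524606 (plus), chr2:1800473-1800622 (minus), chr3:10255756-10255905 (plus), chr4:11334202-11334351 (plus) and chr4:2673244-2673393 (minus). Capitals mark matches to any of the 5 words on either strand.
LHCB1.1: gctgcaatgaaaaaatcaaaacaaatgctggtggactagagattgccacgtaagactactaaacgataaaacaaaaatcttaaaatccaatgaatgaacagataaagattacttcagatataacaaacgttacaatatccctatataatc
LHCB1.4: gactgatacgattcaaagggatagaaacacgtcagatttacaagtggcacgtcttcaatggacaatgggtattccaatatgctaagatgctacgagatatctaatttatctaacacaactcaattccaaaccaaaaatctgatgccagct
LHCB2.2: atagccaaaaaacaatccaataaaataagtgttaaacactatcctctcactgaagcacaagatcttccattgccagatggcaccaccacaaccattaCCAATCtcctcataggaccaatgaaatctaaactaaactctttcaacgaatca
LHCB2.3: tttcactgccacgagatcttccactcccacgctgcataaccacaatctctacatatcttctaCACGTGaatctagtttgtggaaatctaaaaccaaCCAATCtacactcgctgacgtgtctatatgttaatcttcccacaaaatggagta
PSBQ1: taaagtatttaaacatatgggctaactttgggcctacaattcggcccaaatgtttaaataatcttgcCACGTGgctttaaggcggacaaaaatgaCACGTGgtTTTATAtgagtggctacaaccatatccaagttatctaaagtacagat
PSBQ2: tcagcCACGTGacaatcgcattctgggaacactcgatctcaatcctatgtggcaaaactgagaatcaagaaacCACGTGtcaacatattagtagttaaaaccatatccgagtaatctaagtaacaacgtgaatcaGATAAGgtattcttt
The printed stretches of LHCB1.1 and LHCB1.4 hold none of the 5 words, that of LHCB2.2 holds CCAATC, and that of LHCB2.3 holds a G-box and CCAATC. PSBQ1 and PSBQ2 each hold a pair of G-boxes, with TATAAA on the other strand in PSBQ1 and GATAAG in PSBQ2. Against WT, the median log2 fold change was -0.50 (hot3-2) and -0.68 (hot3-3) for members with a G-box in the 300-base window, and -0.55 and -0.72 for those without. It was -0.42 and -0.61 with the I-box core and -0.72 and -0.90 without it, and -0.56 and -0.76 with TATAAA and -0.42 and -0.64 without it. For CCAATC it was -0.49 and -0.70 with the word and -0.54 and -0.68 without it. For the evening element core, in 4 members, it was -0.53 and -0.76 with the word and -0.54 and -0.68 without it. These medians are descriptions, and no difference between them was tested.

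Total counts were 14090881 to 24155594 in hot3-2, 20059680 and 34696683 in hot3-3, and 16015064 and 20628779 in WT. HOT3 (chr1:28830902-28836748, minus strand, 13 exons) was at 77.7, 97.4 and 92.5 CPM in hot3-2 and at 195 and 271 CPM in hot3-3, against 171 and 169 CPM in WT, where CPM is edgeR's library-size-scaled count with trimmed mean of M values (TMM) factors. A count over the whole gene takes in exons on both sides of an insertion and gives no check of the hot3-3 label. The WT libraries differed in the antenna genes: WT replicate 2 was more than 1.5 times as high as WT replicate 1 in 8 of 15 LHCB genes, in LHCA4 and in 0 of the 30 members outside the antenna, against 3.16% of tested genes with a mean of at least 5 CPM. The ratio of the highest to the lowest library over the members had a median of 1.06 in hot3-2, 1.04 in hot3-3 and 1.18 in WT.

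Transcripts of the light reactions were lower in both mutants. The 51 genes summed to 70363, 71117 and 71137 CPM in hot3-2 and to 61777 and 63424 CPM in hot3-3, against 94899 and 112162 CPM in WT. Every mutant library was below both WT libraries, and the mean was 31.5% lower in hot3-2 and 39.5% lower in hot3-3 than in WT. The mean was 25.3% and 34.0% lower without WT replicate 2, and 36.8% and 44.2% lower without WT replicate 1. A gene was called by edgeR's quasi-likelihood test at an adjusted P below 0.01 over all tested genes. In hot3-2, 37 of 51 members were lower, against 15.0% of all tested genes, and 1 was higher, against 18.8% of all. In hot3-3, 40 members were lower, against 16.2% of all, and 0 were higher, against 19.5% of all. By edgeR 1 member was higher in hot3-3 at an unadjusted P below 0.05, and DESeq2 called 0 higher. With the study's further limit of 1 on the log2 fold change, 6 members were lower in hot3-2 (3.88% of all) and 16 in hot3-3 (4.91% of all), and 1 was higher in hot3-2 (7.80% of all) and 0 in hot3-3 (9.63% of all). The members had median log2 fold changes of -0.54 (hot3-2) and -0.68 (hot3-3), against 0.00 and 0.01 over all tested genes. All 5 mutant libraries lay below both WT libraries in 43 members (27.3% of all tested genes) and above both in 1 member (29.6% of all). The count of lower members was 29 to 40 in hot3-2 and 35 to 43 in hot3-3 when each library was left out in turn. Without WT replicate 2, LHCB1.1, LHCB1.2, LHCB2.1 and LHCB2.2 were the members furthest above 0 in both alleles. Leaving out 1 WT or 1 hot3-3 library leaves 1 library in that group. P values and calls of such fits do not measure the spread of that group. When only the groups compared were fitted, 36 members were lower in hot3-2, where the calls of PSBQ1 and PSBQ2 were lost (adjusted P = 0.0161 and 0.0106). In hot3-3 31 were then lower, and LHCB1.3, LHCB1.5, LHCB4.1, LHCB6, LHCA4, PSAF, PSBQ1, FD2 and ATPD lost their calls (adjusted P = 0.0101 to 0.0361).

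**Figure D1:**
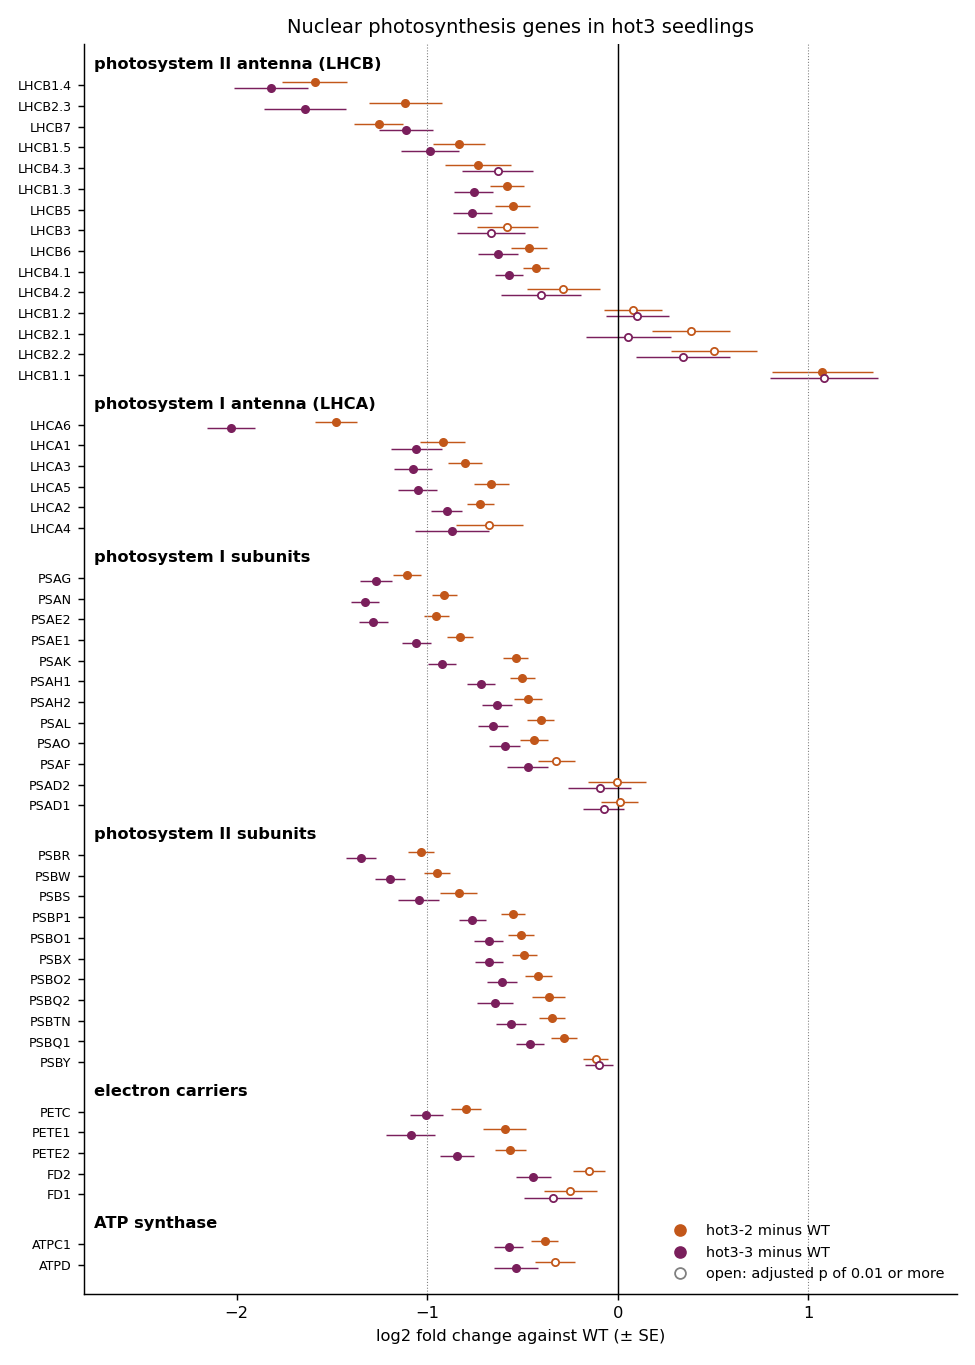
Log2 fold change against WT (x axis, ± SE) of the 51 members, grouped by complex, in hot3-2 (n = 3) and hot3-3 (n = 2) against the same 2 WT libraries. Open points did not pass an adjusted P below 0.01. Most points lie below 0, LHCA6 lies at -1.48 and -2.03, and LHCB1.1 lies highest at 1.07 and 1.08.

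Sets of cell type markers were also compared, and they did not all move in the same direction. Of all tested genes, 18.8% were called higher and 15.0% lower in hot3-2, and 19.5% and 16.2% in hot3-3. Of 7 root markers, 4 were higher in each mutant (PYK10, EXP7, PRP3 and NRT2.1, named after their values were seen), 0 were lower by edgeR or DESeq2 or at an unadjusted P below 0.05, and 0 were at 0 in all libraries. They summed to 1967 to 2443 CPM in hot3-2 and 2222 to 2335 CPM in hot3-3, against 1272 to 1367 CPM in WT. Of 5 leaf photorespiration and carbonic anhydrase genes, 4 were lower in each mutant, with sums of 5107 to 5119 CPM in hot3-2 and 4035 to 4454 CPM in hot3-3, against 8668 to 11037 CPM in WT. Of 6 genes of dividing cells, 2 were higher in each mutant and 1 was lower in hot3-3, with sums of 93.2 to 95.4 CPM in hot3-2 and 95.7 to 99.99 CPM in hot3-3, against 70.3 to 78.4 CPM in WT. Of 4 epidermis and guard cell markers, 1 was lower in hot3-2 and 2 in hot3-3, and 0 were higher. They summed to 369 to 400.4 CPM in hot3-2 and 305 to 308 CPM in hot3-3, against 344 to 397 CPM in WT. Of 4 flower markers, only 2 passed the filter on low counts. Of these, 1 was lower in hot3-2 and 2 in hot3-3 by edgeR, and 0 and 1 by DESeq2. The 4 flower markers summed to at most 0.786 CPM in hot3-2 and 0.530 CPM in hot3-3, against 1.91 CPM in WT, with AP1 at 0 in both hot3-3 libraries. The part of these shifts in the results was not tested, and in RNA of whole seedlings fewer cells of a type and less RNA per cell cannot be told apart.

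**Figure D2:**
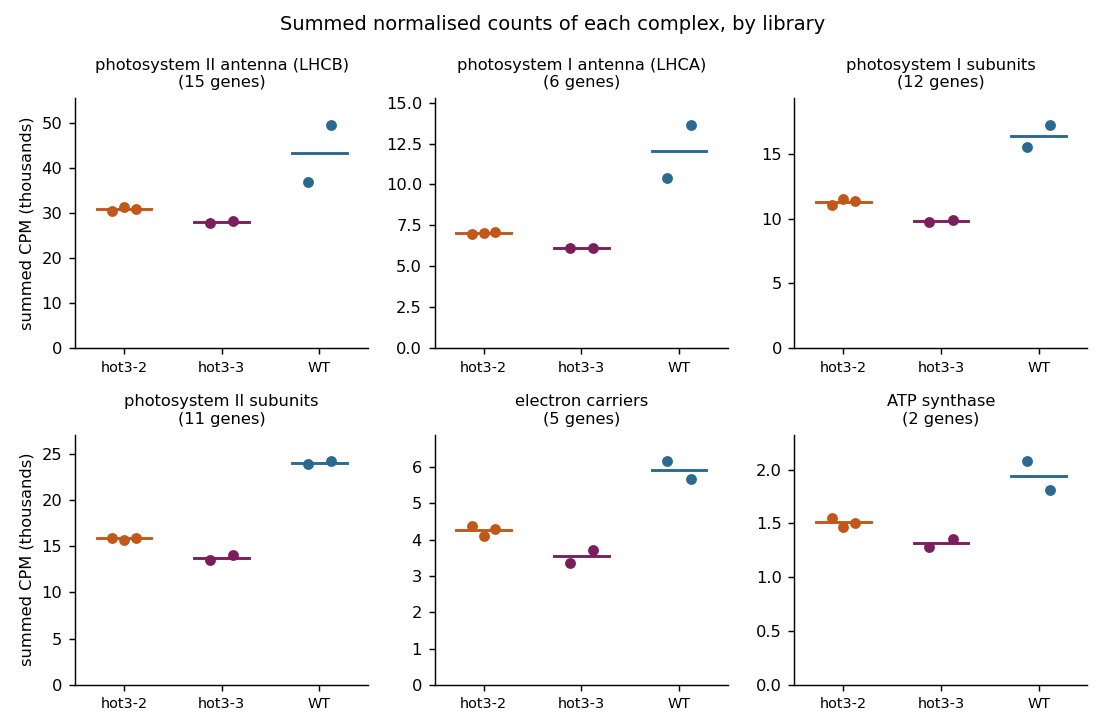
Summed CPM divided by 1000 (y axis, from 0) of each complex, by library (points) with the group mean (bars), in hot3-2 (n = 3), hot3-3 (n = 2) and WT (n = 2). In each of the 6 panels every mutant library lies below both WT libraries, with LHCB sums of 30475 to 31356 CPM in hot3-2 and 27846 and 28325 CPM in hot3-3, against 36881 and 49626 CPM in WT.

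The photosystem II antenna changed unequally. As a whole it was 28.5% lower in hot3-2 and 35.1% lower in hot3-3 than in WT, or 16.1% and 23.8% lower without WT replicate 2 and 37.7% and 43.4% lower without WT replicate 1. In it 9 of 15 genes were lower and 1 higher in hot3-2, and 8 were lower in hot3-3. LHCB1.3, a subunit of the trimeric antenna, had the highest WT level of all members per length (15346 CPM per kb). It was at 12488.5, 12775 and 12608 CPM in hot3-2 and 10972 and 11377 CPM in hot3-3, against 16897 and 20854.5 CPM in WT. No mutant library reached a WT library, and the log2 fold change was -0.58 ± 0.09 in hot3-2 and -0.76 ± 0.10 in hot3-3 (SE, edgeR adjusted P = 0.000716 and 0.000264). The monomeric antenna genes LHCB4.1, LHCB5 and LHCB6, whose proteins link the trimers to the core, were lower in both alleles, with log2 fold changes of -0.43, -0.55 and -0.47 in hot3-2 and -0.57, -0.76 and -0.63 in hot3-3. For LHCB6 the call in hot3-2 was lost without any 1 of the hot3-2 libraries (adjusted P = 0.0103 to 0.0196).

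LHCB1.4 fell most in this antenna, and was at 680, 820 and 758 CPM in hot3-2 and 664 and 619 CPM in hot3-3, against 1723 and 2803 CPM in WT. All mutant libraries were below both WT libraries, and the log2 fold changes were -1.59 ± 0.17 (hot3-2) and -1.82 ± 0.20 (hot3-3; edgeR adjusted P = 7.66e-05 and 6.46e-05). LHCB2.3 (AT3G27690) was at 21.04, 27.4 and 23.9 CPM in hot3-2 and 16.99 and 16.4 CPM in hot3-3, against 38.6 and 64.9 CPM in WT. The groups did not overlap, and its log2 fold change was -1.11 ± 0.19 in hot3-2 and -1.64 ± 0.22 in hot3-3 (edgeR adjusted P = 0.00119 and 0.000234), or -0.72 in hot3-2 without WT replicate 2. LHCB7 (AT1G76570) was at 7.74, 6.72 and 8.30 CPM in hot3-2 and 8.28 and 8.54 CPM in hot3-3, against 20.1 and 16.4 CPM in WT. This weakly expressed gene was lower in every mutant library, by -1.25 ± 0.13 in hot3-2 and -1.11 ± 0.14 in hot3-3 on the log2 scale (edgeR adjusted P = 6.17e-05 and 0.000184). LHCB1.5 was also lower, with -0.83 in hot3-2, or -0.55 without WT replicate 2, and -0.99 in hot3-3. LHCB4.3 was called lower in hot3-2 (-0.73, adjusted P = 0.00674) and missed the threshold in hot3-3 (-0.63, adjusted P = 0.0189). In hot3-3 it was -0.93 without WT replicate 2 and -0.31 without WT replicate 1. The alleles did not differ by the test (0.10 ± 0.17, adjusted P = 0.759). In hot3-2 the value was -0.41 without WT replicate 1, and the call was lost without any 1 of the hot3-2 libraries (adjusted P = 0.0191 to 0.0246).

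LHCB1.1 went the other way, at 2363, 2198 and 2296 CPM in hot3-2 and 2291 and 2308 CPM in hot3-3, against 664 and 1507 CPM in WT. The mutant libraries lay close together above both WT libraries, while the WT libraries differed 2.27 times. Its log2 fold change was 1.07 ± 0.27 in hot3-2 (edgeR adjusted P = 0.00859) and 1.08 ± 0.28 in hot3-3, where it missed the threshold (adjusted P = 0.0111). It was 0.60 in hot3-2 and 0.61 in hot3-3 without WT replicate 1, and 1.75 and 1.77 without WT replicate 2. With 1 WT library left, a fit does not measure the WT spread, so only the effect sizes are given. The hot3-2 call was lost without any 1 of the 3 hot3-2 libraries (adjusted P = 0.0223 to 0.0280). LHCB1.2, LHCB2.1 and LHCB2.2 did not pass in either allele, with 0.08, 0.38 and 0.51 in hot3-2 and 0.10, 0.06 and 0.34 in hot3-3 on the log2 scale, and their mutant libraries overlapped the WT range. Without WT replicate 2 these 3 genes were at 0.41, 0.88 and 1.05 in hot3-2 and 0.44, 0.56 and 0.90 in hot3-3. Without WT replicate 1 they were at -0.21, -0.00 and 0.09 in hot3-2 and -0.19, -0.33 and -0.07 in hot3-3. LHCB3 and LHCB4.2 missed the threshold, with -0.58 and -0.29 in hot3-2 and -0.66 and -0.40 in hot3-3. Without WT replicate 1 LHCB3 was at -0.89 and -0.97 and LHCB4.2 at -0.64 and -0.76. Without WT replicate 2 LHCB3 was at -0.22 and -0.30, and LHCB4.2 turned to 0.15 and 0.05. The sizes of these changes, and the direction of LHCB4.2, therefore rest on which WT library is used.

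**Figure D3:**
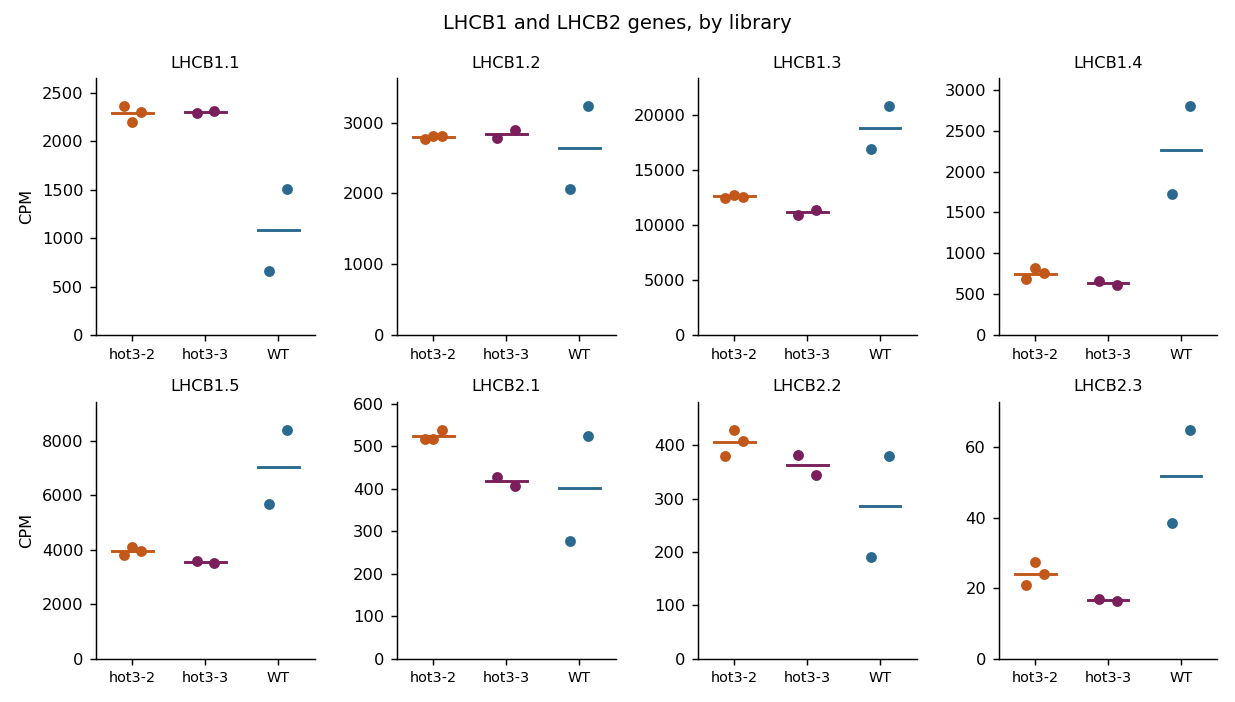
CPM (y axis, from 0) of the 5 LHCB1 and 3 LHCB2 genes, by library (points) with the group mean (bars), in hot3-2 (n = 3), hot3-3 (n = 2) and WT (n = 2). LHCB1.1 lies above both WT libraries in every mutant library, LHCB1.3, LHCB1.4, LHCB1.5 and LHCB2.3 lie below both, and the other 3 genes overlap WT.

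Ratios between copies within a library need no scaling between libraries. LHCB1.1 took 10.7%, 9.68% and 10.2% of LHCB1 counts in hot3-2 and 11.3% and 11.1% in hot3-3, against 2.46% and 4.09% in WT. LHCB1.4 took 3.08%, 3.61% and 3.38% in hot3-2 and 3.27% and 2.99% in hot3-3, against 6.38% and 7.61% in WT. Thus LHCB1.1 was the larger of this pair in every mutant library and the smaller in both WT libraries. LHCB1.3 was the main copy throughout, with 56.2% to 56.5% in hot3-2 and 54.004% and 54.9% in hot3-3, against 62.6% and 56.6% in WT. LHCB2.3 took 2.29%, 2.81% and 2.46% of LHCB2 counts in hot3-2 and 2.05% and 2.13% in hot3-3, against 7.60% and 6.69% in WT.

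In all, 23 pairs of paralogs in 10 families were compared, over 5 mutant and 2 WT libraries. The log2 ratio of LHCB1.1 to LHCB1.4 was 1.796, 1.42 and 1.5999 in hot3-2 and 1.79 and 1.90 in hot3-3, against -1.38 and -0.90 in WT, a shift of 2.84. That of LHCB1.1 to LHCB1.5 was -0.69, -0.90 and -0.79 in hot3-2 and -0.65 and -0.61 in hot3-3, against -3.09 and -2.48 in WT, a shift of 2.06. That of LHCB1.1 to LHCB1.3 was -2.40, -2.54 and -2.46 in hot3-2 and -2.26 and -2.30 in hot3-3, against -4.67 and -3.79 in WT, a shift of 1.84. In these pairs every mutant library lay above both WT libraries. The ratio of LHCB2.2 to LHCB2.3 shifted likewise by 1.796, with 4.18, 3.97 and 4.09 in hot3-2 and 4.49 and 4.39 in hot3-3, against 2.31 and 2.55 in WT. Each of these 4 pairs had an exact two-sided permutation P of 0.0476, the smallest that 5 against 2 libraries allow. It was 0.0842 after Benjamini-Hochberg adjustment over the 23 pairs, so that none passed 0.05 after adjustment. With so few libraries a pair could pass only if nearly all 23 pairs reached the smallest P, so the adjusted value cannot decide.

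The same smallest P was found for 13 pairs: all 10 LHCB1 pairs, both pairs with LHCB2.3, and PSAE1 with PSAE2, whose ratio shifted by 0.17. The LHCB1 pairs share their genes and are not separate tests. In the other 8 families no ratio moved by more than 0.40, the shift of LHCB4.2 to LHCB4.3, which was 1.118 without WT replicate 2 and -0.32 without WT replicate 1. LHCB4.1 to LHCB4.2 shifted by -0.21, or -0.58 without WT replicate 2, and LHCB4.1 to LHCB4.3 by 0.19, or 0.54 without it. Without WT replicate 1 both shifts changed sign, to 0.16 and -0.15. The log2 ratio of PSAD1 to PSAD2 was 1.58, 1.49 and 1.49 in hot3-2 and 1.52 and 1.51 in hot3-3, against 1.67 and 1.38 in WT (exact permutation P = 0.952). For the copies of PSAH, PSBO, PSBQ and PETE the shifts were -0.06, -0.08, 0.12 and -0.10 (exact permutation P = 0.286 to 0.667), and the mutant libraries overlapped WT. Without WT replicate 1 the shift was 0.28 for PSBQ and -0.33 for PETE, and without WT replicate 2 it was -0.05 and 0.13.

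**Figure D4:**
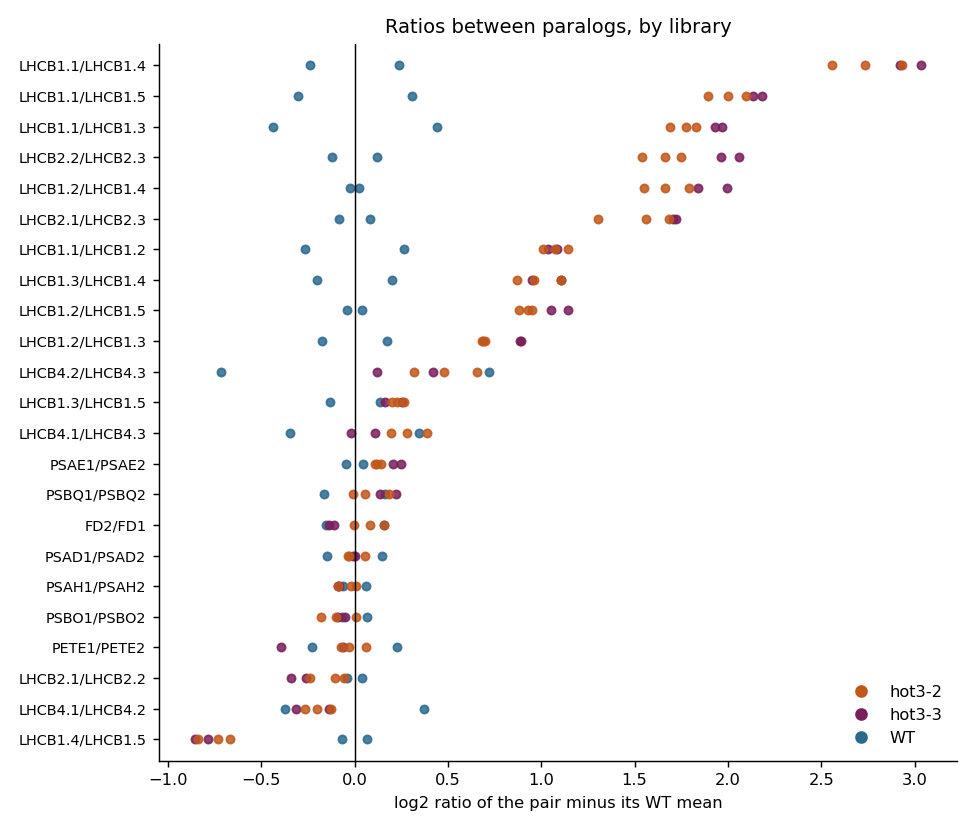
Log2 ratio of counts between 2 paralogs less the WT mean of that ratio (x axis) for 23 pairs, by library, in hot3-2 (n = 3), hot3-3 (n = 2) and WT (n = 2). The mean shift of LHCB1.1/LHCB1.4 is 2.74 in hot3-2 and 2.98 in hot3-3, and the pairs of PSAD, PSAH, PSBO and PSBQ lie close to 0.

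The photosystem I antenna was lower as a whole. Its sum was 6996, 7026 and 7082 CPM in hot3-2 and 6092 and 6105 CPM in hot3-3, against 10401 and 13649 CPM in WT, which is 41.5% and 49.3% lower. It was 32.4% and 41.4% lower without WT replicate 2, and 48.5% and 55.3% lower without WT replicate 1. In hot3-2 5 of 6 genes were lower and in hot3-3 all 6, and in each of the 6 genes every mutant library was below both WT libraries. LHCA6 (AT1G19150), which with LHCA5 joins photosystem I to the NDH complex, was at 45.9, 43.3 and 41.7 CPM in hot3-2 and 28.8 and 30.8 CPM in hot3-3, against 138 and 106 CPM in WT. Its log2 fold change was -1.48 ± 0.11 in hot3-2, where only LHCB1.4 of the members was lower, and -2.03 ± 0.13 in hot3-3, the lowest of the members (edgeR adjusted P = 9.89e-06 and 3.82e-06). LHCA5 (AT1G45474) was at 92.1, 79.0 and 85.8 CPM in hot3-2 and 64.0 and 67.0 CPM in hot3-3, against 145 and 127 CPM in WT (-0.66 ± 0.09 and -1.05 ± 0.10).

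LHCA1 to LHCA4 form the antenna belt of photosystem I. LHCA1 (AT3G54890) was at 1160, 1207 and 1214 CPM in hot3-2 and 1090 and 1079 CPM in hot3-3, against 1888 and 2624 CPM in WT (-0.92 ± 0.12 and -1.06 ± 0.13). LHCA3 (AT1G61520) was at 2055, 1973 and 2018 CPM in hot3-2 and 1661 and 1678 CPM in hot3-3, against 3164 and 3866 CPM in WT (-0.80 ± 0.09 and -1.07 ± 0.10). Both were past the threshold in each allele, as was LHCA2 with -0.72 and -0.90. LHCA4 (AT3G47470) was at 1793, 1817 and 1817 CPM in hot3-2 and 1600 and 1559 CPM in hot3-3, against 2122 and 3648 CPM in WT. It missed the threshold in hot3-2 (-0.67, adjusted P = 0.0110), where it was -1.01 without WT replicate 1 and -0.27 without WT replicate 2. It passed in hot3-3 (-0.87, adjusted P = 0.00509), where it was -0.45 without WT replicate 2 and where leaving out hot3-2 replicate 2 or 3 or either hot3-3 library ended the call (adjusted P = 0.0117 to 0.0218).

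Photosystem I subunits summed to 11044, 11515 and 11392 CPM in hot3-2 and 9734 and 9916 CPM in hot3-3, against 15524 and 17258 CPM in WT, with 9 of 12 genes lower in hot3-2 and 10 in hot3-3. PSAG (AT1G55670), a membrane subunit beside the antenna, was at 1109, 1178 and 1190 CPM in hot3-2 and 1005 and 1062 CPM in hot3-3, against 2371 and 2612 CPM in WT. Every mutant library was far below WT, and the log2 fold change was -1.10 ± 0.07 in hot3-2 and -1.27 ± 0.08 in hot3-3 (edgeR adjusted P = 6.41e-06 and 4.57e-06). PSAN (AT5G64040), on the lumenal side where plastocyanin docks, was at 686, 669 and 685 CPM in hot3-2 and 495 and 523 CPM in hot3-3, against 1288 and 1268 CPM in WT (-0.91 ± 0.06 and -1.33 ± 0.07).

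On the stromal side, where ferredoxin docks, the PSAE and PSAD genes differed. PSAE1 (AT4G28750) was at 815, 766 and 799 CPM in hot3-2 and 663 and 691 CPM in hot3-3, against 1365 and 1450 CPM in WT (-0.83 ± 0.07 and -1.06 ± 0.08). PSAE2 (AT2G20260) was at 326, 313 and 324.5 CPM in hot3-2 and 246.5 and 264 CPM in hot3-3, against 623 and 620 CPM in WT (-0.95 ± 0.07 and -1.28 ± 0.08). PSAD1 (AT4G02770), in contrast, was at 1214, 1389 and 1301 CPM in hot3-2 and 1239 and 1215 CPM in hot3-3, against 1163 and 1419 CPM in WT, so that all mutant libraries lay within the WT range. Its log2 fold change was 0.01 ± 0.10 and -0.07 ± 0.11, and that of PSAD2 was -0.01 ± 0.15 and -0.09 ± 0.17. Without WT replicate 1 PSAD1 was at -0.13 and -0.21 and PSAD2 at -0.27 and -0.36. Without WT replicate 2 PSAD1 was at 0.13 and 0.05 and PSAD2 at 0.28 and 0.20, so the direction of both rests on the WT library used. PSAK, PSAH1, PSAH2, PSAL and PSAO were lower in both alleles, with -0.40 to -0.54 in hot3-2 and -0.59 to -0.92 in hot3-3, though the PSAL call in hot3-2 was lost without hot3-2 replicate 3 (adjusted P = 0.0119). PSAF was called in hot3-3 (-0.47, adjusted P = 0.00519, against -0.32 and 0.0211 in hot3-2), and this call was lost without WT replicate 2, hot3-2 replicate 3 or either hot3-3 library (adjusted P = 0.0104 to 0.0306). In hot3-2 it was -0.45 without WT replicate 1 and -0.21 without WT replicate 2. The alleles did not differ by the test in PSAF (-0.15, adjusted P = 0.369).

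Photosystem II subunits summed to 15923, 15652 and 15919 CPM in hot3-2 and 13454 and 14015 CPM in hot3-3, against 23863 and 24149 CPM in WT, and 10 of 11 genes were lower in each allele. PSBR (AT1G79040), a small subunit associated with the oxygen-evolving complex, was at 2633, 2388 and 2539 CPM in hot3-2 and 1995 and 2048 CPM in hot3-3, against 5160 and 5140 CPM in WT. Its log2 fold change was -1.03 ± 0.07 in hot3-2 and -1.35 ± 0.08 in hot3-3 (edgeR adjusted P = 6.41e-06 and 2.90e-06). PSBS (AT1G44575), needed for photoprotective quenching, was at 719, 619 and 681 CPM in hot3-2 and 550.4 and 613 CPM in hot3-3, against 1293 and 1108 CPM in WT (-0.83 ± 0.10 and -1.04 ± 0.11). PSBW (AT2G30570), a subunit that stabilises the supercomplex with the antenna, was at 914, 859 and 892.5 CPM in hot3-2 and 734 and 764 CPM in hot3-3, against 1651 and 1777 CPM in WT (-0.95 ± 0.07 and -1.19 ± 0.08). These 3 genes were lower in every mutant library than in any WT library.

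Genes for the extrinsic proteins of the oxygen-evolving complex were also lower. PSBO1, PSBO2 and PSBP1 had log2 fold changes of -0.51, -0.42 and -0.55 in hot3-2 and -0.68, -0.61 and -0.76 in hot3-3, and PSBQ1 and PSBQ2 had -0.28 and -0.36 in hot3-2 and -0.46 and -0.64 in hot3-3. Calls of PSBQ1 and PSBQ2 in hot3-2 were lost without any 1 mutant library, that of PSBQ2 also without WT replicate 2 (adjusted P = 0.0124 to 0.0438 over both genes), and the hot3-3 call of PSBQ1 without hot3-3 replicate 1 (adjusted P = 0.0120). PSBX and PSBTN were at -0.49 and -0.34 in hot3-2 and -0.68 and -0.56 in hot3-3, and the PSBTN call in hot3-2 was lost without any 1 of the hot3-2 libraries (adjusted P = 0.0101 to 0.0202). PSBY (AT1G67740) was at 922, 915 and 932 CPM in hot3-2 and 911 and 959 CPM in hot3-3, against 1027 and 974 CPM in WT. Its mutant libraries lay just below WT, and the test was not passed (-0.12 ± 0.07 and -0.10 ± 0.07).

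Among the electron carriers, 3 of 5 genes were lower in hot3-2 and 4 in hot3-3. PETC (AT4G03280), the Rieske protein of the cytochrome b6f complex, was at 718, 656 and 686 CPM in hot3-2 and 562 and 625 CPM in hot3-3, against 1232 and 1150 CPM in WT (-0.79 ± 0.08 and -1.004 ± 0.09). PETE1 (AT1G76100), the minor plastocyanin gene, was at 88.2, 87.7 and 88.1 CPM in hot3-2 and 65.9 and 59.3 CPM in hot3-3, against 114 and 151 CPM in WT (-0.59 ± 0.11 and -1.09 ± 0.13), and its hot3-2 call was lost without hot3-2 replicate 3 (adjusted P = 0.0120). PETE2, the major one, had -0.56 and -0.84. FD1 (AT1G10960), a leaf ferredoxin, was at 236, 212 and 226 CPM in hot3-2 and 206 and 216 CPM in hot3-3, against 318 and 217 CPM in WT, where the lower WT library lay among the mutant libraries (-0.25 ± 0.14 and -0.34 ± 0.15, not called). FD1 was at -0.53 and -0.61 without WT replicate 2, and at 0.05 and -0.04 without WT replicate 1. FD2 (AT1G60950), the major leaf ferredoxin, was called in hot3-3 (-0.44 ± 0.09, adjusted P = 0.00336, against -0.15 ± 0.08 and 0.163 in hot3-2), and the call was lost without hot3-2 replicate 3 or either hot3-3 library (adjusted P = 0.0122 to 0.0312). In hot3-2 FD2 was -0.30 without WT replicate 2 and -0.03 without WT replicate 1. The difference between the alleles in FD2 did not pass (-0.29, adjusted P = 0.0632).

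ATPC1 (AT4G04640), the gamma subunit of the ATP synthase, was at 997, 966 and 975 CPM in hot3-2 and 838 and 879.6 CPM in hot3-3, against 1331 and 1224 CPM in WT (-0.38 ± 0.07 and -0.57 ± 0.08), and its hot3-2 call was lost without hot3-2 replicate 3 (adjusted P = 0.0146). ATPD (AT4G09650), the delta subunit, was at 557, 499.8 and 533.5 CPM in hot3-2 and 446 and 473 CPM in hot3-3, against 746 and 586 CPM in WT. All mutant libraries were below WT for both genes. ATPD missed the threshold in hot3-2 (-0.33, adjusted P = 0.0259), where it was -0.53 without WT replicate 2 and -0.14 without WT replicate 1. It passed in hot3-3 (-0.53, adjusted P = 0.00389), where it was -0.35 without WT replicate 1 and lost the call without hot3-2 replicate 3 or either hot3-3 library (adjusted P = 0.0117 to 0.0262). The alleles did not differ by the test in ATPD (-0.21, adjusted P = 0.252).

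The alleles were also compared with each other. In hot3-3 the log2 fold change against hot3-2 was below 0 for 46 of 51 members, against 50.5% of all tested genes, with a median of -0.19, against 0.00 over all tested genes. Both hot3-3 libraries were below all hot3-2 libraries in 41 members (25.2% of all tested genes). At an unadjusted P below 0.05, 26 members were lower (12.9% of all). After adjustment 1 member, PSAN, was lower (0.870% of all), and 0 were higher by edgeR (1.38% of all), by DESeq2 or at an unadjusted P below 0.05. PSAN was at 495 and 523 CPM in hot3-3, against 686, 669 and 685 CPM in hot3-2, a log2 fold change of -0.42 ± 0.07 (edgeR adjusted P = 0.00751). Its call was lost without any 1 mutant library (adjusted P = 0.0234 to 0.0636). The number of lower members in this comparison ranged from 0, without any 1 mutant library, to 10, without either WT library. LHCA6, PSAK and LHCA5 had -0.55, -0.39 and -0.39, with adjusted P of 0.0220, 0.01004 and 0.0350, and were not called.

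The level of a member in WT told little of its change. Over the 51 members, Spearman's rho between WT CPM per kb and the mean log2 fold change of the alleles was -0.16. This is a description across genes of the same 7 libraries.

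Other thylakoid genes, from a list chosen with earlier results known, were also lower: 9 of 12 passed in hot3-2 and 10 in hot3-3, with medians of -0.75 and -0.94. Among all tested genes, 15.0% were lower and 18.8% higher in hot3-2, and 16.2% and 19.5% in hot3-3. PGRL1A, which takes part in cyclic electron flow, was at 207, 208 and 197 CPM in hot3-2 and 175 and 182 CPM in hot3-3, against 506 and 475 CPM in WT (-1.27 and -1.46). PETM, a small subunit of the cytochrome b6f complex, had -0.95 and -1.30, and CURT1A, which curves the thylakoid membrane, had -0.99 and -1.16. Of 4 genes for antenna insertion, 1 was lower in hot3-2 and 3 in hot3-3, and the insertase gene ALB3 was lower in both (-0.84 and -1.15). Of 6 antenna-like genes, 3 were lower in hot3-2 and 4 in hot3-3, among them LIL3.2 (-0.80 and -1.16), and ELIP1, a light stress protein gene named after its values were seen, was higher in hot3-3 (1.52).

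Chlorophyll synthesis was mixed. Of 17 genes, 6 were lower and 2 higher in hot3-2, and 8 lower and 1 higher in hot3-3, with medians of -0.04 and -0.25. The shares of all tested genes were 15.0% lower and 18.8% higher in hot3-2, and 16.2% and 19.5% in hot3-3. PORA, a light-dependent reductase gene at a low level here, was lower (-1.33 and -2.62), as were the reductase gene DVR (-1.18 and -1.56) and the methyltransferase gene CHLM (-0.98 and -1.38). HEMA1 and CHLH, which act at the start of the pathway and at magnesium insertion, did not pass (0.11 and 0.07 in hot3-2, -0.24 and 0.06 in hot3-3). GUN4, an activator of magnesium chelatase, was higher in both alleles (0.55 and 0.36) and PORB in hot3-2 (0.41), both named after their values were seen. DESeq2 called 2 of the 17 genes higher in hot3-2 and 0 in hot3-3, so the hot3-3 call of GUN4 was lost there. Of 6 tested chlorophyll breakdown genes 3 were lower in each allele (NOL, NYC1 and PAO). SAG12, a senescence-associated gene kept on the same list, had 0 counts in every library.

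Of 10 tested regulators, 2 were higher and 1 lower in each allele, near the shares of all tested genes (18.8% and 19.5% higher, 15.0% and 16.2% lower). GLK1, an activator of antenna genes, was at 142, 168 and 161 CPM in hot3-2 and 203.5 and 170.0 CPM in hot3-3, against 121 and 92.3 CPM in WT. Every mutant library was above WT, with 0.56 ± 0.13 in hot3-2 and 0.81 ± 0.14 in hot3-3 on the log2 scale (edgeR adjusted P = 0.00719 and 0.00142). GLK2 was higher by 0.36 and 0.53 (adjusted P = 0.00481 and 0.000773), and GUN1, of plastid signalling, was lower (-0.41 and -0.59). No clock gene of 11 was called by edgeR or DESeq2 in either allele, and at an unadjusted P below 0.05 3 were lower and 2 higher in hot3-2, and 2 lower and 1 higher in hot3-3.

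Of 11 plastid-encoded partners, 0 were called by edgeR in hot3-2, where DESeq2 called 1 lower and 1 higher and 3 were lower and 1 higher at an unadjusted P below 0.05. In hot3-3, psbD, atpB and petA were lower (-0.80, -0.88 and -1.12). By edgeR 15.0% of all tested genes were lower and 18.8% higher in hot3-2, and 16.2% and 19.5% in hot3-3. Between the alleles psbD and atpB were lower in hot3-3 than in hot3-2 (-0.61 and -0.56, adjusted P = 0.00315 and 0.00983). Plastid transcripts largely lack poly(A) tails, and the libraries were made from polyadenylated RNA, so the share of plastid transcripts behind these counts is not known.

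**Figure D5:**
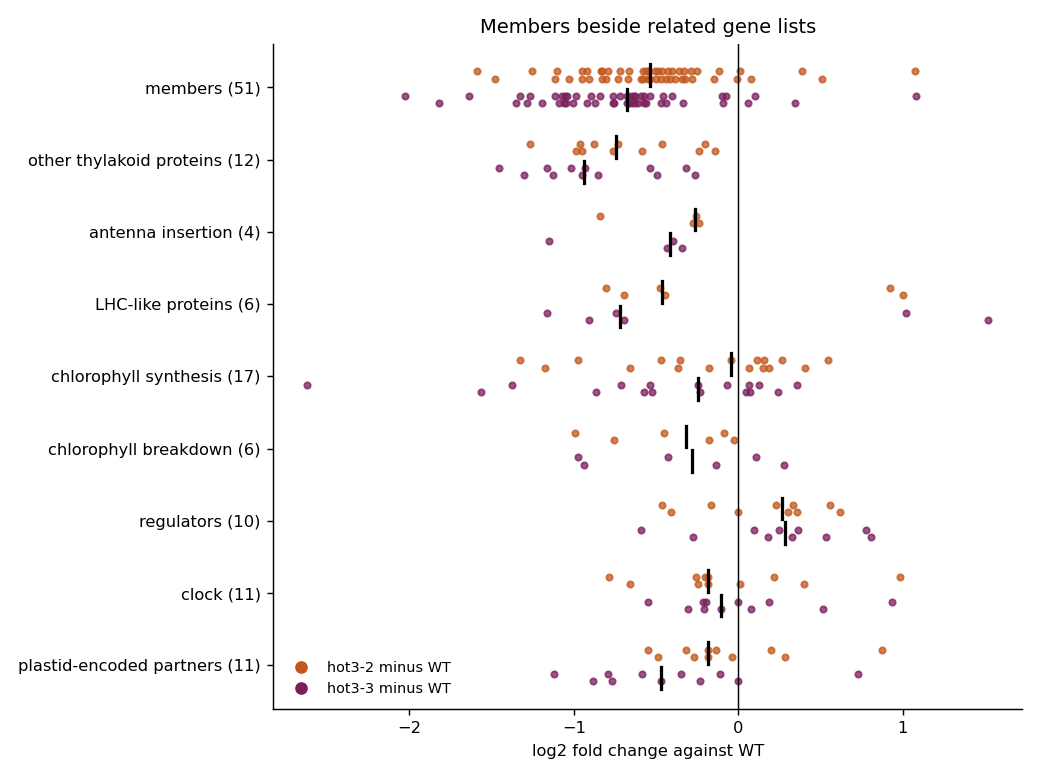
Log2 fold change against WT (x axis) of the members and of 8 related gene lists, in hot3-2 (n = 3) and hot3-3 (n = 2) against the same 2 WT libraries, with a point for each tested gene and a bar at the median. The medians of the members (-0.54 and -0.68) and of other thylakoid genes (-0.75 and -0.94) lie below 0, and that of the regulators (0.26 and 0.29) lies above 0.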

How the data were processed

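RNA-seq libraries from seedlings of hot3-2 (n = 3), hot3-3 (n = 2) and WT (n = 2) were analysed from the deposited read counts, 1 table per library, and the libraries were grouped by the labelled genotype. The authors made the counts per gene from uniquely and properly mapped pairs on TAIR10. The submitters' processing notes name cutadapt 4.2, STAR 2.7.10b and featureCounts 2.0.3, and the paper's methods name other versions of cutadapt and STAR. The strand setting and annotation release are not given in the sources used here. Multi-mapped reads were left out by the authors, which can lower counts of near-identical copies. Total counts were 14090881 to 34696683, so that genes at a few CPM rest on far fewer counts than the antenna genes. The count columns also carry exonic lengths, used for CPM per kb.

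The 7 libraries entered 1 edgeR fit (4.0.16, in R 4.3.3) with TMM scaling and filterByExpr at a minimum count of 10. Contrasts used the quasi-likelihood F test with Benjamini-Hochberg adjustment over 20795 genes. Calls needed an adjusted P below 0.01, and the fold limit of 1 on the log2 scale follows the study's threshold. The SE is the log2 fold change over the square root of F. Paralog ratios used counts plus 0.5 and an exact permutation test of the 5 mutant against the 2 WT libraries. The model was tested on simulated counts. Positions and sequences came from the RefSeq annotation of TAIR10.1, in which 50 of 51 members had the exonic length given in the count tables (ATPC1 differed).

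Members given per library were the lowest and highest in each complex, those past the fold limit in either allele or past the threshold between alleles, and the 4 largest shifts of paralog ratio. At most 3 genes of each other list were named by size, besides GLK1, GLK2, CHLH, HEMA1 and HOT3 and those said to be chosen after their values were seen. The members and lists were chosen with earlier results of these data known. Alternatives were other scalings and filters, DESeq2 1.42.0, a replicate block, fits of 2 groups, a threshold of 0.05, no added count in the ratios, a 250-base promoter window and leaving out each library.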

Additional observations from a re-analysis of the deposited data

Results flagged for a closer look

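PSAN, a lumenal subunit of photosystem I, differed between the alleles by a test of the difference itself. Its log2 fold change was -0.42 in hot3-3 against hot3-2 (edgeR adjusted P = 0.00751), with 495 and 523 CPM in hot3-3 and 686, 669 and 685 CPM in hot3-2, and both hot3-3 libraries were below all hot3-2 libraries. The value kept its sign under all 15 alternatives, with an adjusted P of 0.000125 to 0.0722, and 9 of them ended the call.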

How the results depend on the processing

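The counts of lower members against WT stayed within 1.5 times of the main counts under every alternative run, with 26 (replicate block) to 41 for hot3-2 and 31 to 43 for hot3-3. The number of higher members in hot3-2 was 0 to 4 when a library was left out. In hot3-3, with 0 called, it was 1 with RLE size factors, with library totals, with no filter, with the replicate block and at an adjusted P below 0.05, and 0 to 4 when a library was left out. Between the alleles, with 1 lower member called, the count was 0 with RLE size factors, library totals, a filter of 1 CPM and the replicate block, 3 with no filter, 6 with DESeq2, 10 with the groups of the contrast only, 7 at an adjusted P below 0.05, and 0 to 10 when a library was left out. The median in hot3-2 (-0.54) was -0.55 with RLE size factors and DESeq2, -0.58 with library totals, -0.56 with a filter of 1 CPM and with the groups of the contrast only, and -0.57 to -0.50 when a library was left out. The median in hot3-3 (-0.68) was -0.79 to -0.66 when a library was left out. Between the alleles (-0.19) it was -0.13 with library totals, -0.18 with a filter of 1 CPM and -0.22 to -0.17 when a library was left out. LHCB2.1 in hot3-3 (0.06) was -0.33 without WT replicate 1 and 0.56 without WT replicate 2. The I-box core was in 11 members in the 250-base window. The cause of these changes was not tested, beyond the fewer samples or bases that an alternative uses.

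Whether replicate numbers pair the samples is not stated and could not be told from the counts. Residuals of libraries with the same number correlated at 0.033 to 0.036 between WT and the mutants, and at 0.158 and 0.134 between hot3-2 and hot3-3. In a group of 2 libraries the residuals are equal and opposite, so these values cannot settle it. With the replicate block, 26 members were lower in hot3-2, 38 in hot3-3 and 0 between the alleles, with medians of -0.53, -0.68 and -0.19. The block ended the hot3-2 calls of LHCB4.1, LHCB4.3, LHCB6, PSAL, PSAO, PSBO2, PSBQ1, PSBQ2, PSBTN, PETE1 and ATPC1 (edgeR adjusted P = 0.0106 to 0.0692). In hot3-3 the calls of PSAF and FD2 were lost (edgeR adjusted P = 0.0114 and 0.0164). With 1 library left out, the smallest exact P of a paralog ratio is 0.0667 or 0.167, so no ratio can then pass 0.05. No scaling moved the median of all genes by over 0.1. With 2 libraries in hot3-3 and in WT, the spread within a group rests on few values. Where 1 of these libraries is left out, that group adds nothing to the spread, and calls of such fits do not measure it.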
